A study of Homo sapiens with 5 samples.

Results

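A set of 57 protein-coding genes was examined whose RNA was low in HEK 293T cells exposed to 5-aza-2'-deoxycytidine. After the drug had been withdrawn, their RNA was at 2/3 of the untreated level or more. HEK 293T is a line of human embryonic kidney origin with a stable SV40 large T antigen gene, and 5-aza-2'-deoxycytidine (5-aza-CdR) is a deoxycytidine analogue that is incorporated into DNA and depletes DNA methyltransferases. The genes were the protein-coding RefSeq entries with at least 5 FPKM (fragments per kilobase of transcript, scaled to the mapped fragments of the library) in control cells, at most 1/3 of the control level in treated cells, and at least 2/3 of it in recovery cells. Of 16862 protein-coding entries, 8063 reached the control minimum and 57 met every condition, which is 0.707% of those 8063. Treated cells had received 1 µM 5-aza-CdR for 3 days (2 libraries). Recovery cells had received the same treatment and were then kept for 30 days without the drug (1 library), and control cells grew without the drug (2 libraries). All groups were the same line in the same medium, and the labels do not say at which time the controls were collected. RNA was depleted of ribosomal RNA and sequenced from directional libraries.

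The members were chosen on these very values, so the treated and recovery levels relative to control are given as a description and carry no test. The authors had combined the libraries of each group, so every gene has 1 FPKM per group and no SD can be given. In bulk RNA, fewer cells of a type and less RNA per cell cannot be told apart. If the commonest ratio to control stands for 1 fragment against 1, the treated depth was 1.32 times the control depth. The recovery depth was then 0.652 times the control depth. Of 18 HEK 293T marker genes, 15 had an entry and 6 had at least 5 FPKM in control. In treated cells, the authors' deposited table called 2 of the 15 higher and 0 lower. Over all 10638 protein-coding entries tested, 110 (1.03%) were called higher and 23 (0.216%) lower. The markers' median difference from control in log2(FPKM + 1) was 0.36 in treated and -0.01 in recovery cells, over 14 genes. The keratin KRT18 had 418 FPKM in treated, 214 in recovery and 231 in control cells, and VIM (vimentin) had 181, 246 and 316 FPKM in those groups. PAX2, a kidney transcription factor, was at 0.146 FPKM in treated cells and listed at 0 in recovery and control cells. None of 17 blood cell markers, 1 of 12 endothelial markers and 3 of 13 fibroblast markers measured reached 5 FPKM in control.

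Several members are known targets of ATF4, the transcription factor of the integrated stress response. Kinases that sense amino acid shortage, unfolded protein in the endoplasmic reticulum, viral RNA or haem shortage phosphorylate the initiation factor eIF2, which slows general translation while raising translation of ATF4. ATF4 protein then activates genes for the synthesis and uptake of amino acids, for charging of transfer RNA, and for feedback and growth control. Its binding element, the CARE (C/EBP-ATF response element), joins a partial site for C/EBP proteins with one for ATF proteins.

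Across the 57 members, treated levels ran from 0.584 to 739 FPKM with a median of 4.27, recovery levels from 4.2 to 4261 with a median of 14.6, and control levels from 5.09 to 2626 with a median of 16.2. The treated level was 0.036 to 0.332 of control, with a median of 0.285. The members crowd against the treated limit, since 33 of 57 lay between 1/4 and 1/3 of control, while 13 lay at or below 1/5 and 5 at or below 1/10. The recovery level was 0.667 to 2.78 times control, with a median of 0.876. Recovery was at or above control for 17 members and below it for 40, and 33 were within 1.25 times of control. No member was listed at 0 in treated cells.

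**Figure D1:**
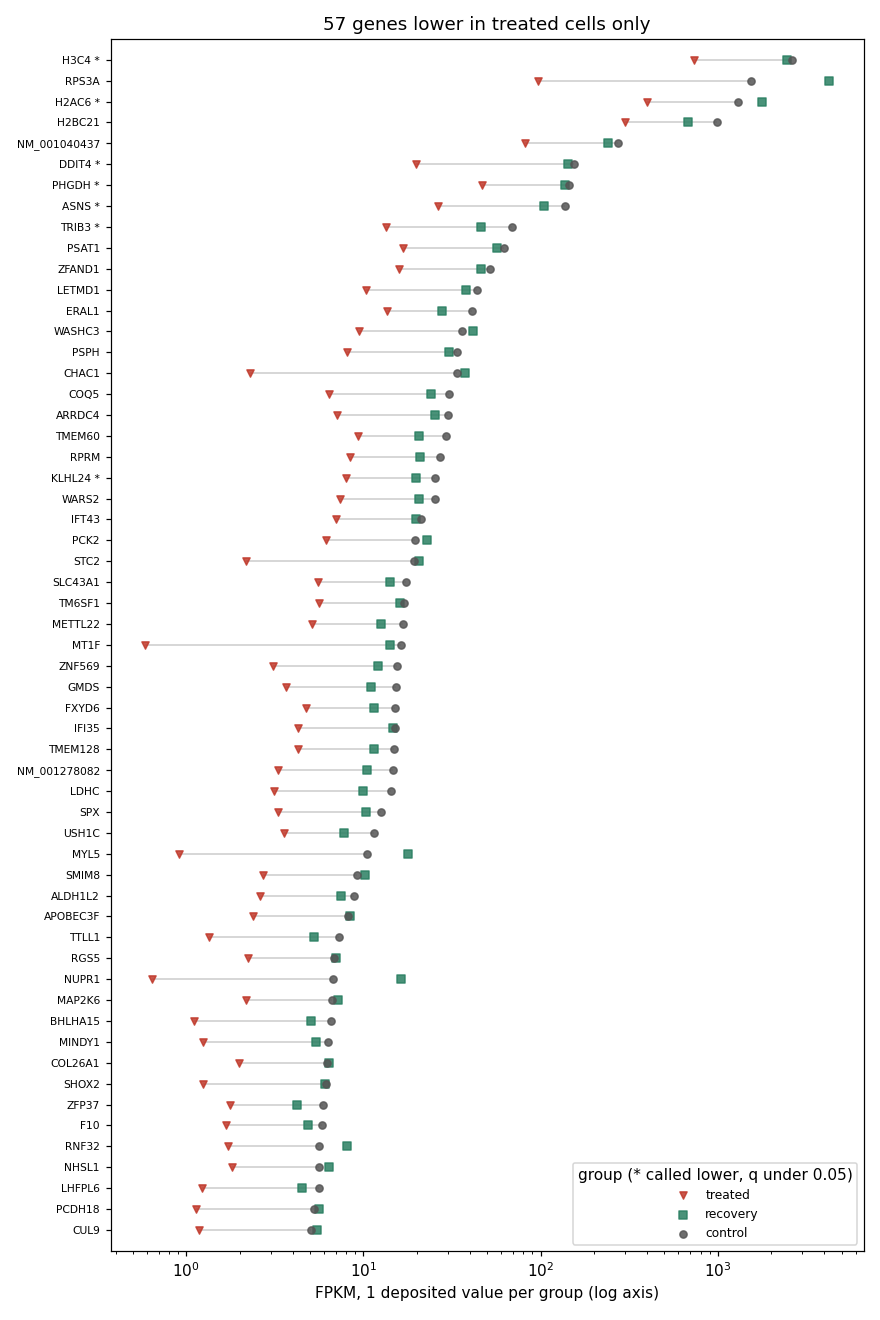
FPKM (log axis) of the 57 members in treated (triangles), recovery (squares) and control (circles) cells, 1 deposited value per group, ordered by control level, with asterisks for the 7 that the authors called lower. The treated value lies left of both others in every row because the rule requires it, and the recovery value passes the control value most clearly for RPS3A, NUPR1 and MYL5.

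Most members were not called individually. In the authors' deposited table, 7 of the 57 members had q under 0.05 for treated against control and were lower, where 23 of 10638 protein-coding entries tested (0.216%) were lower and 110 (1.03%) higher; the rule used the same contrast, so nothing is read from this share. The 7 were DDIT4, ASNS, TRIB3, H2AC6, PHGDH, H3C4 and KLHL24. A further 3 members, ARRDC4, STC2 and PSAT1, had q of 0.0586, 0.0646 and 0.0814 in the authors' deposited table. At the other end, 37 members had a treated q of 0.5 or more and 14 of 0.9 or more in the authors' deposited table. For recovery against control, 0 of 57 members were called in the authors' deposited table, the lowest q being 0.934, while 41 of 10545 protein-coding entries (0.389%) were lower and 85 (0.806%) higher. That absence is also partly fixed by the rule.

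**Figure D2:**
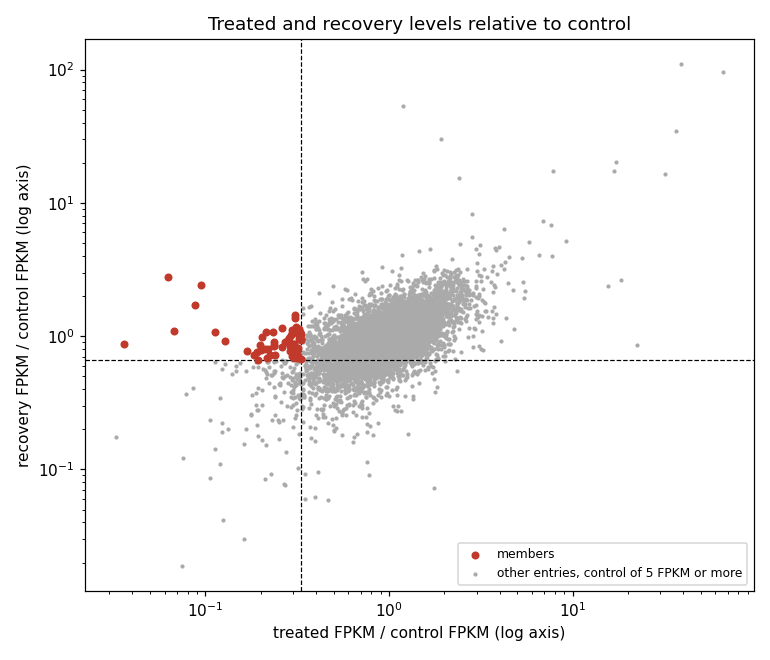
Recovery over control FPKM against treated over control FPKM (both log axes) for protein-coding entries with at least 5 FPKM in control, with the 57 members in red, the other entries in grey, and dashed lines at 1/3 of control (treated) and 2/3 of control (recovery). The members fill the upper left corner, next to 60 entries at or below 1/3 of control in both groups and 99 in between; 18 entries listed at 0 in treated or recovery cells cannot be drawn.

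Of the 57 members, 13 were in the lists of ATF4 targets, amino acid synthesis or amino acid transport, 17 were in any of 30 lists and 40 were in none. After DDIT4, the enzymes PHGDH and ASNS had the highest control FPKM of the 13. PHGDH, PSAT1 and PSPH are the enzymes that make serine from the glycolytic intermediate 3-phosphoglycerate, in that order, and all of them were members. PHGDH (chr1:120254419-120286849, hg19) fell to 46.8 FPKM in treated cells, with 138 in recovery cells, against 145 in control cells. PSAT1 had 16.8 FPKM in treated and 56.6 in recovery cells, against 62.1 in control cells. PSPH had 8.04 FPKM in treated and 30.6 in recovery cells, against 33.9 in control cells. The treated level was thus 3.09-fold, 3.69-fold and 4.22-fold below control for these enzymes, and recovery stood at 90.4% to 95.1% of control. ASNS (asparagine synthetase, chr7:97481429-97501854, hg19) fell further, to 26.4 FPKM in treated cells, with 104 in recovery cells, against 137 in control cells, a 5.21-fold lower level. The treated q was 0.0147 for ASNS, 0.0239 for PHGDH, 0.0814 for PSAT1 and 0.194 for PSPH in the authors' deposited table.

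The other amino acid and one-carbon members were expressed at lower levels. PCK2, the mitochondrial phosphoenolpyruvate carboxykinase, had 6.11 FPKM in treated and 22.8 in recovery cells, against 19.6 in control cells. ALDH1L2, a mitochondrial enzyme of folate one-carbon metabolism, had 2.62 FPKM in treated and 7.44 in recovery cells, against 8.83 in control cells. SLC43A1, a carrier of large neutral amino acids, had 5.57 FPKM in treated and 14.2 in recovery cells, against 17.4 in control cells. None was called, with treated q of 0.668 for PCK2, 0.241 for ALDH1L2 and 0.601 for SLC43A1 in the authors' deposited table. PHGDH, PCK2, ALDH1L2 and SLC43A1 lay close enough to the treated limit to leave the set when the groups were scaled to a common upper quartile.

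DDIT4, TRIB3 and KLHL24 were the called members in the list of ATF4 regulators and signalling targets. The called ASNS and PHGDH were counted in the amino acid synthesis list instead. DDIT4 (REDD1, an inhibitor of the growth kinase complex mTORC1, chr10:74033677-74035797, hg19) fell 7.84-fold, to 19.7 FPKM in treated cells, with 142 in recovery cells, against 154 in control cells. TRIB3, a pseudokinase induced by ATF4 that restrains it in turn (chr20:361308-378203, hg19), fell 5.14-fold, to 13.4 FPKM in treated cells, with 45.9 in recovery cells, against 68.8 in control cells. TRIB3 was also the least restored of the 57, at 66.7% of control. KLHL24, a BTB and kelch domain protein (chr3:183353411-183402304, hg19), fell to 8.02 FPKM in treated cells, with 19.7 in recovery cells, against 25.3 in control cells. In the authors' deposited table the treated q was 0.0147 for DDIT4 and TRIB3 and 0.0465 for KLHL24. KLHL24 left the set under upper quartile scaling, and also with ratios of FPKM + 1.

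The other 3 members in the ATF4 list had very little RNA in treated cells. CHAC1, an enzyme that breaks down glutathione, had 2.29 FPKM in treated and 37.2 in recovery cells, against 33.8 in control cells, a 14.8-fold lower treated level. STC2, the secreted glycoprotein stanniocalcin 2, had 2.18 FPKM in treated and 20.7 in recovery cells, against 19.4 in control cells, 8.89-fold lower. NUPR1, a small stress-induced nuclear protein, had 0.64 FPKM in treated and 16.2 in recovery cells, against 6.76 in control cells. All of these ended recovery at or above control, and NUPR1 reached 2.4 times its control level. None was called, with treated q of 0.563 for CHAC1, 0.0646 for STC2 and 0.939 for NUPR1 in the authors' deposited table.

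Promoter sequence was available for 47 of the 57 members, as the 300 bases from 250 before to 50 after the RefSeq start site (GRCh38.p14). Only the first window listed for a gene was searched, on both strands. As examples, 6 windows are printed 5′ to 3′ on the gene's strand: the CARE-bearing ASNS and CHAC1, the serine synthesis genes PSAT1 and PHGDH, the called stress-response gene DDIT4, and the called histone gene H2AC6. Capitals mark the CARE (TGATGNAA), the CCAAT box (CCAAT) and the TATA box (TATAAA), read on either strand. ASNS lies at chr7:97872359-97872658 on the minus strand, CHAC1 at chr15:40953221-40953520, PSAT1 at chr9:78296875-78297174, PHGDH at chr1:119711684-119711983, DDIT4 at chr10:72273674-72273973 and H2AC6 at chr6:26123922-26124221, the last 5 on the plus strand.
ASNS: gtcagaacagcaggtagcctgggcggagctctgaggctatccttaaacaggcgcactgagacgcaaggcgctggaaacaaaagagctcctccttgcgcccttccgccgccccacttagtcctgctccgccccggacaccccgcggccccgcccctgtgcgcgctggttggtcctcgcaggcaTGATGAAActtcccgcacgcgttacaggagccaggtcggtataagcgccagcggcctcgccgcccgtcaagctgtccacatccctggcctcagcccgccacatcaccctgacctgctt
CHAC1: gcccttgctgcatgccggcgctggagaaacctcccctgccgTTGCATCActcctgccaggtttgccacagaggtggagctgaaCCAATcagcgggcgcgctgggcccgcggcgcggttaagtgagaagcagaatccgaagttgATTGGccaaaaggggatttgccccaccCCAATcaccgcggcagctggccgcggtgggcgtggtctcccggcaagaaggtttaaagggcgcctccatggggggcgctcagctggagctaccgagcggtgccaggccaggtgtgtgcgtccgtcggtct
PSAT1: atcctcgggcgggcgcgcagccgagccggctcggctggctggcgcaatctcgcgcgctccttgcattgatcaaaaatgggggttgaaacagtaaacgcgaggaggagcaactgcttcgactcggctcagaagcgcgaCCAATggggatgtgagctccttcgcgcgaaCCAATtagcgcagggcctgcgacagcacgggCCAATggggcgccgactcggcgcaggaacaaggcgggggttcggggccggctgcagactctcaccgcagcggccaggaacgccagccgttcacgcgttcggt
PHGDH: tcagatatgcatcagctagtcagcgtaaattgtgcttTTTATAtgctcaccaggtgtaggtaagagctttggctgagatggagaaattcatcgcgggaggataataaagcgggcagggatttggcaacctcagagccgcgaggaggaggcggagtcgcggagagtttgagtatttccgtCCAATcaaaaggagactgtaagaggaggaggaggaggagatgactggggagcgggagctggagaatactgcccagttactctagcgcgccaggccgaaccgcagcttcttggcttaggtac
DDIT4: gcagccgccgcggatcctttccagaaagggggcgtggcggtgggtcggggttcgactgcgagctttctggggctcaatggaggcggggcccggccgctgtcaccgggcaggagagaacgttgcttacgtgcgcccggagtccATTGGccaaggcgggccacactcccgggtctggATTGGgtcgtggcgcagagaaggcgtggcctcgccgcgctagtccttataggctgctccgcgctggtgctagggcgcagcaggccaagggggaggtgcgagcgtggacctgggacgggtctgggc
H2AC6: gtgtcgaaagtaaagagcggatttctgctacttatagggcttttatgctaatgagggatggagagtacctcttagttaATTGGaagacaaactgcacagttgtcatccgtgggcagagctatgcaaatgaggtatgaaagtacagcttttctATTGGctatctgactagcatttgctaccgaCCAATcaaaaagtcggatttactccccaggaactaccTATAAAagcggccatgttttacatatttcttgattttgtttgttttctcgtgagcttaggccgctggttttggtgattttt

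The CARE letters stood 68 bases before the start site in ASNS, and 209 bases before it on the opposite strand in CHAC1. No other member window held them, so 2 of 47 members (4.26%) had a CARE, beside 1.54% of 5510 windows of the 6597 genes that met the control and recovery conditions but not the treated one, and 3.67% of all 27305 windows. PSAT1 carried 3 CCAAT boxes between 52 and 113 bases before its start, and CHAC1 and H2AC6 carried 3 each as well. DDIT4 had 2 on the opposite strand and PHGDH had 1. The CCAAT box was present in 22 of 47 member windows (46.8%), beside 38.9% of the comparison windows and 35.7% of all windows. H2AC6 had TATAAA 31 bases before its start, whereas the PHGDH match lay 213 bases before its start on the opposite strand. The TATA box was found in 3 member windows (6.38%; PHGDH, H2BC21 and H2AC6), beside 5.19% and 12%. A match describes letters in this window and is not evidence of binding, and a missing match says nothing about the factor.

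The other elements searched were about as frequent in the members as elsewhere, or rested on few genes. The cyclic AMP response element TGACGTCA was in 4 member windows (8.51%; WASHC3, IFT43, MYL5 and TMEM128), beside 3.9% of the comparison windows and 1.98% of all windows. The E-box CACGTG was in 4 (8.51%), beside 11.1% and 7.43%. The GC box GGGCGG was in 33 (70.2%), beside 72.8% and 44.6%. Sterol-response letters CACNCCAC were in 3 (6.38%), beside 5.3% and 5.74%, the AP-1 site TGANTCA in 2 (4.26%), beside 3.87% and 7.76%, and the heat shock pair GAANNTTC in 1 (2.13%), beside 4.36% and 6.87%. Matches of 2 different motifs overlapped in 2 member windows, the CARE with the heat shock pair in ASNS and the cyclic AMP element with the E-box in MYL5.

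Of 26 ATF4 regulators and signalling targets, 23 had an entry, 3 were called lower, 0 were called higher and 20 were not called, by the authors' deposited table. All 3 called genes were members, chosen on the same contrast, so nothing is read from this count. Over all protein-coding entries tested, 0.216% were called lower. The rule placed 6 of them at or below 1/3 of control. Among the 14 others with at least 5 FPKM in control, 10 were below control in treated cells and 5 at or below 1/2 of it, where 57.1% and 8.86% of all 8063 entries at that level were. The median change in log2(FPKM + 1) of the 15 others with a mean of at least 0.5 FPKM was -0.65 in treated and 0.42 in recovery cells, beside 0.02 in treated and 0.00 in recovery cells over 11797 protein-coding entries. With the 6 members included, 16 of 20 (80.0%) were below control and 11 (55.0%) at or below 1/2 of it, and the median was -1.12 in treated and 0.19 in recovery cells.

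ATF4 RNA itself was at 0.441 of control in treated cells, outside the rule, with 217 FPKM in treated and 401 in recovery cells, against 492 in control cells. Its treated q was 0.253 in the authors' deposited table. CEBPG, a partner of ATF4 on the CARE, had 21.5 FPKM in treated and 60.7 in recovery cells, against 53.6 in control cells. INHBE, an inhibin subunit, had 0.125 FPKM in treated and 3.81 in recovery cells, against 2.57 in control cells, and was too low in control to enter the set. SESN2 and GDF15 were among the genes of this list that were above control in recovery cells. SESN2 had 16.9 FPKM in treated and 44.7 in recovery cells, against 19.5 in control cells, and GDF15 had 5.33 FPKM in treated and 27.0 in recovery cells, against 12.8 in control cells. ATF5, another ATF family factor, was above control in both groups, with 18.7 FPKM in treated and 16.8 in recovery cells, against 5.05 in control cells. None of these was called in the authors' deposited table.

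**Figure D3:**
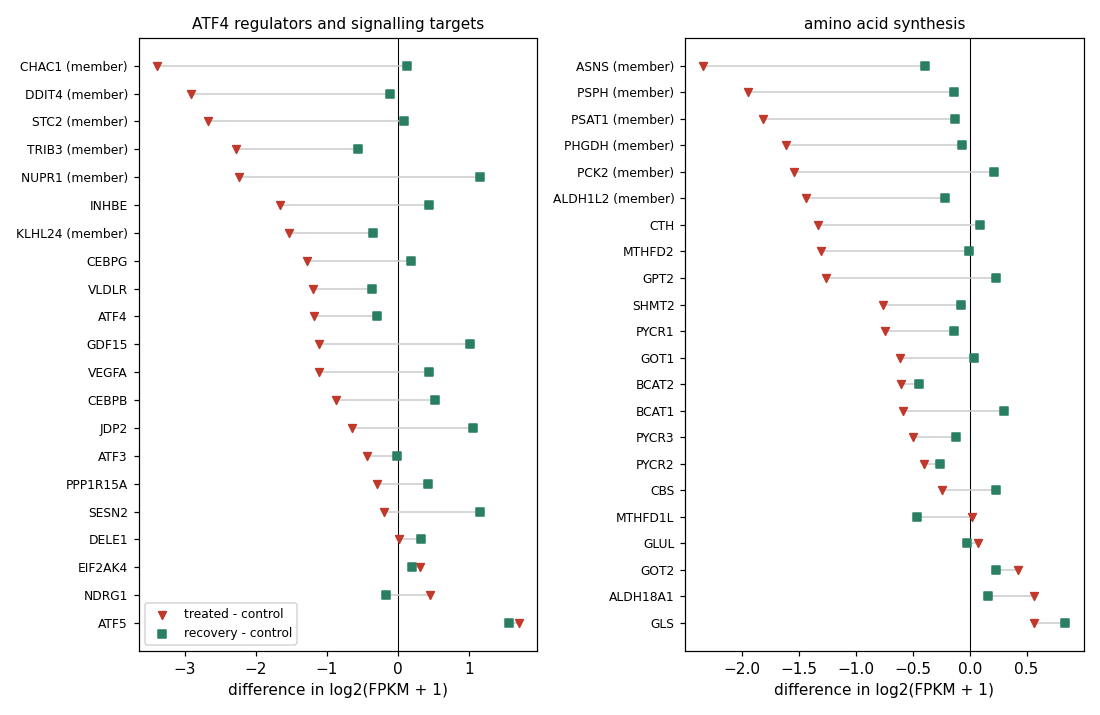
Difference from control in log2(FPKM + 1) for each measured gene of the ATF4 list (left) and the amino acid synthesis list (right), treated cells as triangles and recovery cells as squares, with members marked. In the left plot 17 triangles and in the right plot 17 triangles lie left of 0, including the 6 members in each plot that the rule placed there, while most squares lie near or right of it.

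Of 24 amino acid synthesis genes 22 had an entry, all with at least 5 FPKM in control, and the rule placed 6 of them at or below 1/3 of control. Among the other 16, 11 were below control in treated cells and 3 at or below 1/2 of it, and the median change in log2(FPKM + 1) was -0.55 in treated and 0.01 in recovery cells. With the 6 members the counts were 17 (77.3%) and 9 (40.9%) of 22, and the median was -0.68 in treated and -0.05 in recovery cells, or -0.42 in treated cells under upper quartile scaling. Of the 22, 2 were called lower, both of them members, and 0 higher in the authors' deposited table. Both were chosen on the same contrast, so nothing is read from this count. Over all protein-coding entries tested, 0.216% were called lower and 1.03% higher. MTHFD2, the mitochondrial folate dehydrogenase, had 70.1 FPKM in treated and 174 in recovery cells, against 175 in control cells. CTH, which makes cysteine, had 7.68 FPKM in treated and 22.2 in recovery cells, against 20.8 in control cells. GPT2, a mitochondrial alanine transaminase, had 5.78 FPKM in treated and 18.1 in recovery cells, against 15.2 in control cells. These missed the treated limit, whereas the glutamine synthetase GLUL had 101 FPKM in treated and 95.1 in recovery cells, against 96.3 in control cells.

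Amino acid carriers and tRNA synthetases were counted in the same way. Amino acid transporters contributed 1 member, SLC43A1. Among the other 13 with at least 5 FPKM in control, 11 were below control in treated cells. The median log2 change without SLC43A1 was -0.32 over 16 genes. With SLC43A1 the count was 12 of 14 (85.7%), beside 57.1% of all entries at that control level. The median was then -0.37 over 17 genes, which became -0.12 under upper quartile scaling. The cytosolic aminoacyl-tRNA synthetases contributed none, although 11 of 16 (68.8%) were below control, with a median log2 change of -0.54 in treated and -0.09 in recovery cells. Under upper quartile scaling the synthetases' treated median became -0.28. AARS1, the alanyl-tRNA synthetase, came closest, with 31.3 FPKM in treated and 87.5 in recovery cells, against 87.6 in control cells and a treated q of 0.052 in the authors' deposited table. No transporter or synthetase was called in either direction in the authors' deposited table. For treated cells, 1.03% of all protein-coding entries tested were called higher and 0.216% lower.

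The chaperone arm of the unfolded protein response held no member. Of its endoplasmic reticulum chaperone and degradation genes, 27 were measured, 10 of 23 (43.5%) with at least 5 FPKM in control were below control in treated cells, and the median log2 change was 0.23 in treated and -0.00 in recovery cells. HSPA5 (BiP), its main chaperone, had 72.8 FPKM in treated and 58.8 in recovery cells, against 61.7 in control cells. XBP1, a transcription factor of this response, was the lowest of the list relative to control, with 67.9 FPKM in treated and 182 in recovery cells, against 182 in control cells. The heat shock chaperone list, which also holds 2 heat shock transcription factors and the mitochondrial HSPA9, had a median log2 change of 0.55 in treated cells, with 2 of 18 called higher in the authors' deposited table. Nothing was called lower in either list. Among all 10638 protein-coding entries tested, 1.03% were called higher and 0.216% lower.

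**Figure D4:**
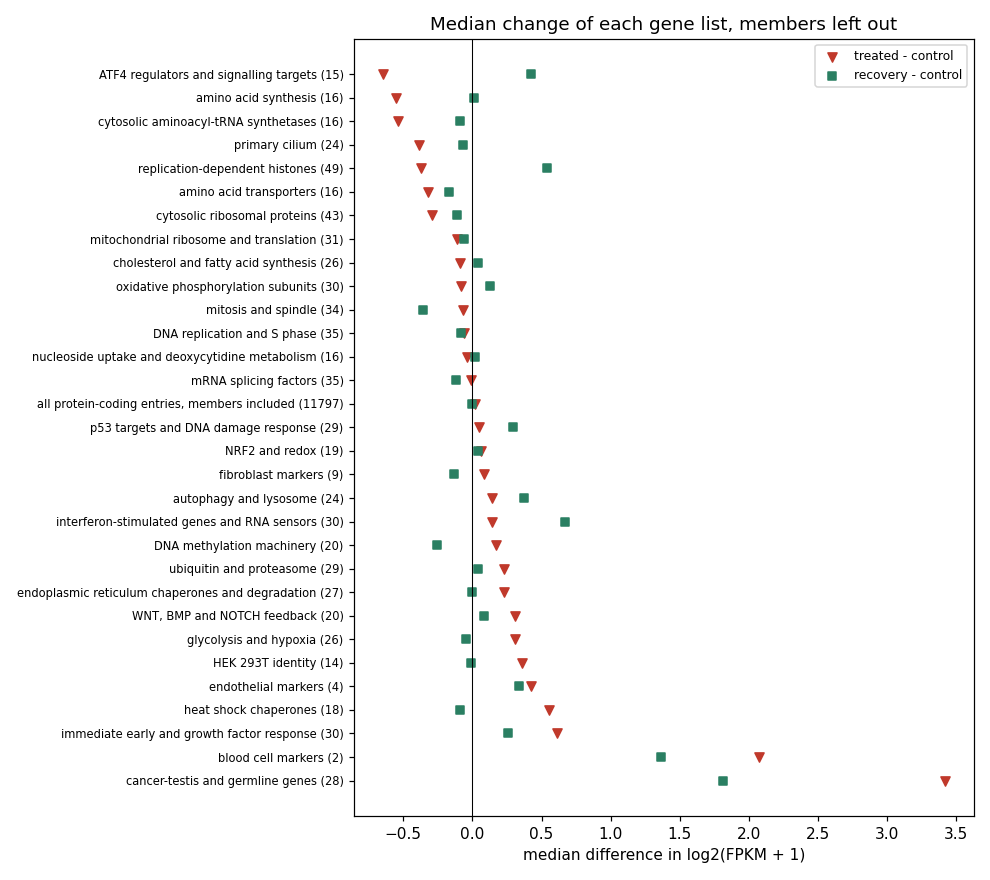
Median difference from control in log2(FPKM + 1) of 30 gene lists without the 57 members, and of all protein-coding entries with them, for treated (triangles) and recovery (squares) cells; brackets give the genes behind each median. The lowest treated medians are -0.65 for the ATF4 list, -0.55 for amino acid synthesis and -0.54 for the synthetases, and their recovery medians are 0.42, 0.01 and -0.09.

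Core histones made up 3 of the 4 members with the highest control FPKM. Replication-dependent histone genes are transcribed in S phase and supply the proteins that wrap new DNA, and their transcripts mostly lack a poly(A) tail. H3C4 (an H3 gene, chr6:26197012-26199521, hg19) fell to 739 FPKM in treated cells, with 2470 in recovery cells, against 2626 in control cells. H2AC6 (an H2A gene, chr6:26124373-26124918, hg19) fell to 401 FPKM in treated cells, with 1784 in recovery cells, against 1301 in control cells. H2BC21 (an H2B gene, chr1:149856010-149858232, hg19) had 300.4 FPKM in treated and 676 in recovery cells, against 985 in control cells. In the authors' deposited table the treated q was 0.0392 for H3C4, 0.0147 for H2AC6 and 0.248 for H2BC21. Histone genes exist in near-identical copies, so the split of fragments among them is uncertain. All 3 left the set under upper quartile scaling, and H2AC6 also under quantile scaling.

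Other histone genes were counted without these members. Of 52 measured histone genes, 42 had at least 5 FPKM in control, and of the 39 that were not members 30 were below control in treated cells and 8 at or below 1/2 of it. Of the 52, the authors' deposited table called 2 lower, the members H3C4 and H2AC6, and 0 higher. Over all protein-coding entries tested, 0.216% were called lower. The median log2 change was -0.40 in treated cells and 0.46 in recovery cells, and -0.37 in treated and 0.54 in recovery cells over the 49 that were not members. The list's treated median became -0.13 under upper quartile and -0.20 under quantile scaling. H4C1 missed the recovery limit, with 99.7 FPKM in treated and 275 in recovery cells, against 482 in control cells. Genes of DNA replication and S phase, which had no member, had a median log2 change of -0.06 in treated cells, which became 0.20 under upper quartile scaling.

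RPS3A, a protein of the small ribosomal subunit, had the widest gap between treated and recovery cells of all members, 44.2-fold. It had 96.4 FPKM in treated and 4261 in recovery cells, against 1535 in control cells (chr4:152020725-152025804, hg19). Its treated level was 15.9-fold below control and its recovery level 2.78 times control, yet the treated q was 0.939 in the authors' deposited table. RPS3A hosts small nucleolar RNAs in its introns and has many processed copies in the genome, so how its fragments were assigned is uncertain. Among 43 other cytosolic ribosomal protein genes none was a member, 35 (81.4%) were below control in treated cells, and the median log2 change was -0.29 in treated cells, which became -0.03 under upper quartile and 0.00 under quantile scaling.

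Some of the remaining well-expressed members encode mitochondrial proteins. ERAL1, a GTPase that chaperones the small mitochondrial ribosomal RNA, had 13.6 FPKM in treated and 27.6 in recovery cells, against 41.0 in control cells. LETMD1, a mitochondrial membrane protein, had 10.4 FPKM in treated and 37.7 in recovery cells, against 43.9 in control cells. COQ5, a methyltransferase of coenzyme Q synthesis, had 6.43 FPKM in treated and 24.1 in recovery cells, against 30.3 in control cells. WARS2, the mitochondrial tryptophanyl-tRNA synthetase, had 7.42 FPKM in treated and 20.6 in recovery cells, against 25.2 in control cells. The mitochondrial ribosome and translation list as a whole lay near 0, with a median log2 change of -0.11 in treated cells over 31 genes, which became 0.16 under upper quartile scaling. COQ5 and WARS2 are named after their values were seen.

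Other members above 20 FPKM in control had varied roles. WASHC3, a subunit of the actin-regulating WASH complex on endosomes, had 9.44 FPKM in treated and 41.4 in recovery cells, against 36.1 in control cells. ZFAND1, an AN1 zinc finger protein, had 15.8 FPKM in treated and 45.8 in recovery cells, against 52.0 in control cells. IFT43, of the A complex of intraflagellar transport in cilia, had 6.97 FPKM in treated and 19.7 in recovery cells, against 21.1 in control cells. IFT43 was the one member in the primary cilium list. Among the other 20 genes with at least 5 FPKM in control, 14 were below control in treated cells. The median log2 change without IFT43 was -0.39 over 24 genes. With IFT43 the count was 15 of 21 (71.4%), beside 57.1% of all entries at that control level. The median was then -0.41, which became -0.15 under upper quartile scaling. ARRDC4, an alpha-arrestin, had 7.1 FPKM in treated and 25.4 in recovery cells, against 29.9 in control cells. RPRM, a small protein linked to p53 and G2 arrest, had 8.38 FPKM in treated and 20.8 in recovery cells, against 27.1 in control cells. An entry with no gene name in the tables used, NM_001040437, had 81.9 FPKM in treated and 240.2 in recovery cells, against 274 in control cells. TMEM60, a membrane protein, had 9.38 FPKM in treated and 20.7 in recovery cells, against 29.2 in control cells. ARRDC4, RPRM and TMEM60 are named after their values were seen.

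The lowest ratio of all rested on few fragments. MT1F, a metallothionein that binds zinc and copper, had the lowest ratio, with 0.584 FPKM in treated and 14.2 in recovery cells, against 16.2 in control cells. The adjacent MT1G went the other way, with 15.8 FPKM in treated and 1.45 in recovery cells, against 0.948 in control cells. MT1B, on the other side of MT1F, was listed at 0 in every group. How fragments were split among these genes was not tested. MYL5, a myosin light chain, had 0.914 FPKM in treated and 17.9 in recovery cells, against 10.5 in control cells. As the smallest whole fragments that fit these values, the counts were 1 in treated and 12 in recovery cells, against 21 in control cells for MT1F, and 3 and 29, against 26 in control cells for MYL5. With these counts, the treated to control ratio was 0.036 for MT1F (exact Clopper-Pearson 95% interval 0.000871 to 0.224) and 0.0873 for MYL5 (0.0169 to 0.285), covering counting error only. Multiples of these numbers would give the same values. Whole numbers were recovered for 8 members in all.

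In 6 of those 8 the interval crosses 1/3 of control. BHLHA15 (MIST1), a transcription factor of secretory cells, had 1.11 FPKM in treated and 5.06 in recovery cells, against 6.6 in control cells. Its smallest fragments were 4 in treated and 9 in recovery cells, against 18 in control cells, with an interval of 0.0414 to 0.511 for the treated ratio. MAP2K6, a kinase that activates p38, had 13 fragments in treated and 21 in recovery cells, against 30 in control cells, with an interval of 0.157 to 0.648. SPX (the peptide spexin), F10 (coagulation factor X), RNF32 and LHFPL6 had upper bounds of 0.577, 0.524, 0.531 and 0.379. For these 6 genes counting error alone allows a treated level above the limit. MAP2K6, SPX, F10 and RNF32 are named after their values were seen.

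TTLL1, a subunit of the tubulin polyglutamylase, had 1.34 FPKM in treated and 5.24 in recovery cells, against 7.31 in control cells, and with NUPR1, CHAC1, STC2, DDIT4 and BHLHA15 was among the 10 members with the lowest treated ratio. The remaining members lay between 5 and 20 FPKM in control and were not called; 34 of the 57 were in that range and 18 under 10 FPKM. They include transcription factors (SHOX2, ZNF569 and ZFP37), enzymes (GMDS, which starts GDP-fucose synthesis; LDHC, the lactate dehydrogenase of testis; APOBEC3F, a cytidine deaminase; and MINDY1, a deubiquitinase), and cell surface or matrix proteins (PCDH18, FXYD6 and COL26A1). SHOX2, a homeobox factor, had 1.25 FPKM in treated and 6.04 in recovery cells, against 6.15 in control cells. ZNF569 had 3.09 FPKM in treated and 12.1 in recovery cells, against 15.5 in control cells. GMDS had 3.66 FPKM in treated and 11 in recovery cells, against 15.3 in control cells. Recovery stood at 98.2% of control for SHOX2, 78.6% for ZNF569 and 71.8% for GMDS. LDHC had 3.13 FPKM in treated and 9.93 in recovery cells, against 14.4 in control cells. APOBEC3F had 2.39 FPKM in treated and 8.41 in recovery cells, against 8.21 in control cells. MINDY1 had 1.25 FPKM in treated and 5.37 in recovery cells, against 6.31 in control cells. Of these enzymes, APOBEC3F passed its control level in recovery cells and LDHC was the least restored, at 69.0%. PCDH18, a protocadherin, had 1.13 FPKM in treated and 5.62 in recovery cells, against 5.26 in control cells. FXYD6, a regulator of the sodium pump, had 4.74 FPKM in treated and 11.5 in recovery cells, against 15 in control cells. COL26A1, a collagen, had 1.98 FPKM in treated and 6.43 in recovery cells, against 6.21 in control cells. PCDH18 and COL26A1 thus ended recovery slightly above control, and FXYD6 at 76.6% of it. USH1C (harmonin), NHSL1, IFI35 (an interferon-induced protein), TMEM128, METTL22, SMIM8 and NM_001278082 complete this range, with treated levels of 1.81 to 5.12 FPKM and control levels of 5.6 to 16.8 FPKM. The genes from SHOX2 to this point, PCDH18 excepted, are named after their values were seen.

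Members just inside each limit were close to entries just outside it. The treated ratio was 0.332 for TM6SF1 and ERAL1 and 0.331 for RGS5, a regulator of G-protein signalling, inside the limit, and 0.338 for TRAF5 and 0.339 for TMEM45A and DMAC2L outside it. The recovery ratio was 0.667 for TRIB3, 0.673 for ERAL1 and 0.686 for H2BC21 inside, and 0.665 for ZNF608 and 0.661 for SYBU and U2AF1L4 outside. In control, CUL9 (a cullin) had 5.09 FPKM, PCDH18 had 5.26 and LHFPL6 had 5.58 inside, while CACNG6 had 4.9, ZNF610 had 4.88 and GALNT3 had 4.65 outside. No gap separated the set from the entries around it.

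Features that the rule did not use were set beside those of the 6597 comparison genes, without a test. Members lay on 20 chromosomes, with 7 on chromosome 6, 6 on chromosome 7 and 5 each on chromosomes 1 and 12, and none on X, where 3.71% of the comparison genes lay. Their median genomic span was 19974 bases, beside 31998 for the comparison genes, and 8 members (14%) spanned under 2500 bases, beside 3.17%. The authors' DNA methylation mark Affected was carried by 6 members (10.5%; METTL22, GMDS, LDHC, BHLHA15, F10 and NHSL1), beside 8.26%. Over all protein-coding entries the share with that mark was 13.5%. None of the 6 members with the methylation mark was called or in an amino acid or ATF4 list. The authors' other mark, High_expression, was carried by 6 members (10.5%), beside 30.1% of the comparison genes and 14.6% of all protein-coding entries. Member windows held a median of 23 CG dinucleotides, beside 27 in the comparison windows, and ranged from 2 in RNF32 to 43 in TM6SF1.

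Adjacent entries were compared with all entries. Of 68 adjacent RefSeq entries with at least 5 FPKM in control, 0 were members and 3 (4.41%) had treated levels at or below 1/3 of control, beside 3.4% of all 8344 entries at that control level. Their median treated to control ratio was 0.915, beside 0.922 over those 8344 entries. One of the 3, the noncoding CCZ1P-OR7E38P, lay 94053 bases beyond ASNS and had 3.1 FPKM in treated and 28.5 in recovery cells, against 18.6 in control cells.

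In the separate table of long noncoding RNAs, 1 locus overlapped a member (RGS5) and 12 more entries lay within 10 kb of one. The intervals beside GMDS and ASNS were each listed under more than 1 entry. The locus TCONS_00023380 ended 236 bases before the start of CHAC1 (chr15:41244055-41245400, hg19) and was listed at 0 in treated cells, with 24 FPKM in recovery cells, against 88.8 in control cells. It was called lower in treated cells with q of 0.0391 in the authors' deposited table, and it was singled out after its values were seen. The RGS5 locus had 24.3 FPKM in treated cells and was listed at 0 in recovery and control cells. Beside GMDS an entry had 78.2 FPKM in treated and 902 in recovery cells, against 72.2 in control cells. Another entry at the same coordinates was listed at 0 in every group. Neither the RGS5 locus nor either GMDS entry was called for treated cells in the authors' deposited table. By the same thresholds, 75 of 1129 long noncoding loci with at least 5 FPKM in control had the pattern, 37 of them listed at 0 in treated cells. So did 17 of 281 noncoding RefSeq entries, 3 of them listed at 0. Among the 57 protein-coding members 0 were listed at 0, so the shares are not compared.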

How the data were processed

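Per the labels, total RNA from HEK 293T cells was extracted with Trizol, stripped of ribosomal RNA with Ribo-Zero and turned into directional cDNA libraries. Cells were grown in triplicate, with no statement of the culture behind each library, so any spread between libraries of a group may be technical. Cufflinks and Cuffdiff were used, per the submitters' processing notes, which list hg19 and mm9, with aligner and versions not given in the sources used here. Coordinates are taken as hg19. The authors deposited each group's expression as 1 FPKM per gene (2 treated, 1 recovery and 2 control libraries, pooled), with q-values (p-values adjusted for multiple testing), yes or no calls, made at q under 0.05, and text marks. The number of value columns matched to no group was 0. Left out were 1 of 20221 RefSeq and 2 of 21627 lncRNA entries with shifted cells.

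Depth is not given. The commonest ratio to control, over entries above 0 in both groups, was taken as 1 fragment against 1. It was 0.757 for treated over control (99 of 12366 entries) and 1.53 for recovery over control (110 of 12095). Whole numbers were searched to 60 control fragments within 0.005. Planned models per library could not be run on group values, so no test was added. Entries with q under 1 count as tested. Log2 changes use FPKM + 1, which understates low genes; list medians need a mean of 0.5 FPKM. RefSeq names and promoters are of GRCh38.p14, and 55 of 57 members matched a name. Python 3.11.15, pandas 2.3.3, numpy 2.4.6 and scipy 1.17.1 were used.

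The members and the 30 gene lists were chosen with earlier results of these data known. Named genes are the called members, list members, the 15 highest in control, the 10 lowest treated ratios, and 3 on each side of each limit; others are marked as named afterwards. Alternatives varied each limit, the scaling, the pseudocount, the low-value filter and the q limit.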

Additional observations from a re-analysis of the deposited data

How the results depend on the processing

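The set depends on where its limits are placed. It held 289 genes with the treated limit at 1/2 of control, 24 with it at 1/4, 89 with a control minimum of 2 FPKM, and 17 when recovery had to reach control. A control minimum of 10 FPKM left 39, an upper recovery limit of 1.5 times control left 54, and all RefSeq entries gave 74. Scaling changed the membership more than the number. Upper quartile scaling gave 43 genes, 27 of them among the 57; quantile scaling gave 66 (54 shared), the median ratio 57 (52 shared) and ratios of FPKM + 1 gave 40 (32 shared). The upper quartile factors were 1.2 for treated and 1.11 for recovery values (0.27 and 0.16 on the log2 scale), so that scaling raises treated levels against control. Under it 3 of the 7 called members stayed in the set, and 8 of the 13 in the ATF4 and amino acid lists; under quantile scaling 6 and 13 did. The 7 calls became 10 at q under 0.10 and 0 at q under 0.01, where the lowest q in the authors' deposited table was 0.0147. The treated medians of 11 lists kept their sign with a pseudocount of 0.1, no filter and median ratio scaling. Upper quartile and quantile scaling of the lists were added after seeing the data. Upper quartile scaling reversed mitochondrial translation (0.16) and DNA replication (0.20), and quantile scaling put ribosomal proteins at 0.00. All of these list medians include the members. Over these alternatives the ATF4 list, with the 6 members that the rule placed low, ran from -1.18 to -0.89. Without those members its treated median was -0.65, and that value was not recomputed under the alternatives. The cause of these shifts was not tested. No paired analysis was possible because the tables analysed here hold 1 value per group, and leaving out a replicate could not be run for the same reason. Recovery had 1 library, and 34 members lay under 20 FPKM in control, which limits their precision.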
